A study of Homo sapiens with 8 samples.

Results

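The pair of miR-221 and miR-222 is made up of 2 miRNA genes whose 4 mature products, hsa-miR-221-3p, hsa-miR-221-5p, hsa-miR-222-3p and hsa-miR-222-5p, were selected by name from the 2549 human miRNAs on the array. They were followed in INA-6, an established human multiple myeloma (MM) cell line that depends on interleukin-6 and was grown with it. The 8 single-colour arrays held RNA from 4 DMSO-treated samples and 4 samples treated for 120 h with 1 µM of UNC1999, a small-molecule inhibitor of the histone H3K27 methyltransferase EZH2. The sample titles label replicates 1 to 4 of each group as biological and name DMSO, the solvent, as the control. The treatment protocol in the labels instead names UNC2400, an inactive relative of UNC1999, and the samples were taken as DMSO controls. All samples came from 1 cell line and all arrays lay on 1 slide. The question was whether the pair changed with inhibition of EZH2.

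A miRNA gene is transcribed as a long primary RNA from which a hairpin is cut, and Dicer then releases a short duplex. One strand of it, from the 5′ arm (5p) or the 3′ arm (3p), is loaded into an Argonaute protein and guides it to messenger RNAs that pair with the seed, bases 2 to 8 of the miRNA. MIR221 and MIR222 lie beside each other on chromosome X within the long non-coding RNA gene MIR222HG and are transcribed together. Their 3p arms are known for repressing the CDK inhibitors CDKN1B (p27) and CDKN1C (p57), brakes on the cell cycle, and are described as oncogenic in many tumours, MM included.

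The 3p arms are shown because they share the seed and so the messenger RNA letters that they read, and the 5p arm of MIR222 because its seed is another one. Sequences are from RefSeq on GRCh38.p14, written 5′ to 3′ with the seed in capitals.
hsa-miR-221-3p: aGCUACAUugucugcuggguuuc
hsa-miR-222-3p: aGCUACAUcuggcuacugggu
hsa-miR-222-5p: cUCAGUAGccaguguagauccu
All 3 lie on the minus strand of chromosome X, hsa-miR-221-3p at chrX:45746180-45746202, hsa-miR-222-3p at chrX:45747036-45747056 and hsa-miR-222-5p at chrX:45747073-45747094. The 3p arms, of 23 and 21 bases, began with the same 8 bases and had 18 identical bases in their alignment. Their seed GCUACAU pairs with AUGUAGC. No other of the 2370 mature human names searched carried that seed.

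The hairpins show how the arms sit in their precursors, with the arms listed by RefSeq in capitals.
MIR221: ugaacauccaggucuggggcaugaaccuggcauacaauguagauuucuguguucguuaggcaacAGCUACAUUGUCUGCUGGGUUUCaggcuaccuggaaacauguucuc
MIR222: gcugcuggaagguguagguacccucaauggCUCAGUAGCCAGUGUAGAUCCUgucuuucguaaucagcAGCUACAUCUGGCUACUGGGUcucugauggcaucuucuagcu
Each hairpin had 110 bases, MIR221 at chrX:45746157-45746266 and MIR222 at chrX:45747015-45747124, with 748 bases between them. Both lay inside MIR222HG.

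The arrays also differed in their overall signal. The scanner software marked 369 to 484 miRNAs as detected on the DMSO arrays and 474 to 500 on the UNC1999 arrays. The 75th percentile of the miRNAs detected on all 8 arrays came to 419 ± 119 intensity units with DMSO and 664 ± 88.3 with UNC1999 (SD, n = 4 each) (exact permutation test, two-sided, p = 0.057). The RNAs spiked in at labelling read 1395 ± 162 and 1288 ± 88.8 units (SD, n = 4; exact permutation p = 0.26). Within each group the arrays were most alike in pairs, DMSO replicates 1 and 4 and replicates 2 and 3, and UNC1999 replicates 1 and 3 and replicates 2 and 4 (across miRNAs, r of 0.996 to 0.998). These pairs were picked as the split with the highest correlations. The lowest r of each array within its group was 0.985 to 0.992. Each array was counted as a sample. DMSO replicates 2 and 3 had the lowest 75th percentiles, at 349 and 296 units, against 474 and 559 on DMSO replicates 1 and 4. The UNC1999 arrays had 534 to 729 units. Of the miRNAs looked for in blood-derived myeloma cells, miR-142-3p, miR-142-5p and miR-21-5p were detected on 8 of 8 arrays and miR-155-5p on 2. The 6 of 6 markers of liver, muscle, neurons, red cells and endothelium were detected on 0 of 8 arrays.

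The pair was dim in INA-6 cells. hsa-miR-221-3p was the sole member detected on any array: the software marked it in 4 of 4 DMSO samples and in UNC1999 replicates 1 and 4, but not in UNC1999 replicates 2 and 3. hsa-miR-222-3p, hsa-miR-221-5p and hsa-miR-222-5p were detected on 0 of 8 arrays. After the arrays were scaled to one another, miR-221-3p was lower in UNC1999 by a factor of 1.96. Before scaling the groups overlapped, so that the decrease is measured against the rest of each array and not in absolute signal.

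Each 3p arm was read by 2 probes of 10 spots per array, hsa-miR-221-5p likewise, and hsa-miR-222-5p by 4 probes of 5 spots. As a background, 7 negative control sequences were spotted on the array. The brightest of them averaged between 1.91 and 4.21 units, depending on the array. Outlier spots were left out, 29 of the 640 spots of the members over all arrays.

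**Figure D1:**
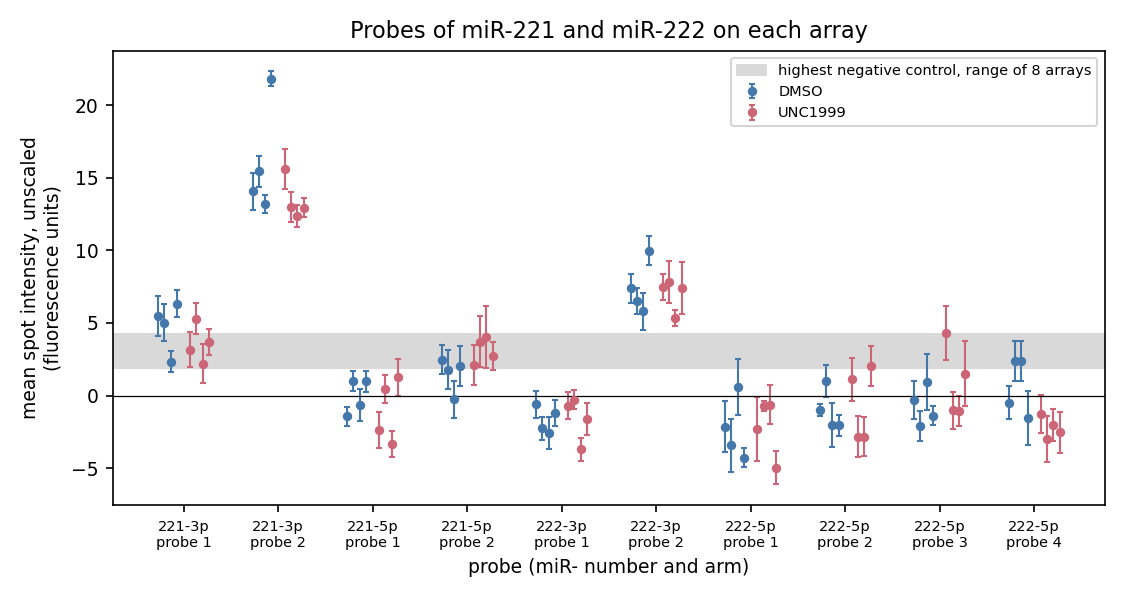
Mean spot intensity before scaling (y axis, fluorescence units) of each of the 10 probes of the pair (x axis) on the 4 DMSO arrays (blue) and the 4 UNC1999 arrays (red), each point 1 array in replicate order with the standard error over its spots. The grey band is the range over the 8 arrays of the brightest negative control; 1 probe of miR-221-3p and 1 of miR-222-3p lie above it on 8 of 8 arrays, and the points of the 5p arms lie about it or below.

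The summed intensity of hsa-miR-221-3p, before scaling, was 19.6, 20.5, 15.5 and 28.1 units on the DMSO arrays of replicates 1 to 4. On the UNC1999 arrays it was 18.7, 18.3, 14.5 and 16.6 units. The groups overlapped: DMSO replicate 3 lay within the UNC1999 values, and DMSO replicate 4 was the highest of all. The means were 20.9 ± 5.27 and 17.03 ± 1.90 units (SD, n = 4), a difference that was not significant (exact permutation test, two-sided, p = 0.20). The detection marks did not follow the intensity alone, since UNC1999 replicate 2 was not marked at 18.3 units and DMSO replicate 3 was marked at 15.5.

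Scaling divided each array by its 75th percentile, which was higher on most UNC1999 arrays. On that scale miR-221-3p read 21.4, 30.4, 27.1 and 26.1 units in DMSO and 14.1, 13.4, 10.3 and 16.1 units in UNC1999. All 4 UNC1999 values now lay below the lowest DMSO value, and DMSO replicate 4 no longer stood above the others. The means were 26.2 ± 3.73 and 13.5 ± 2.40 units (SD, n = 4). With 4 arrays against 4, groups that do not overlap give the smallest p that the exact permutation test allows, 0.029.

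**Figure D2:**
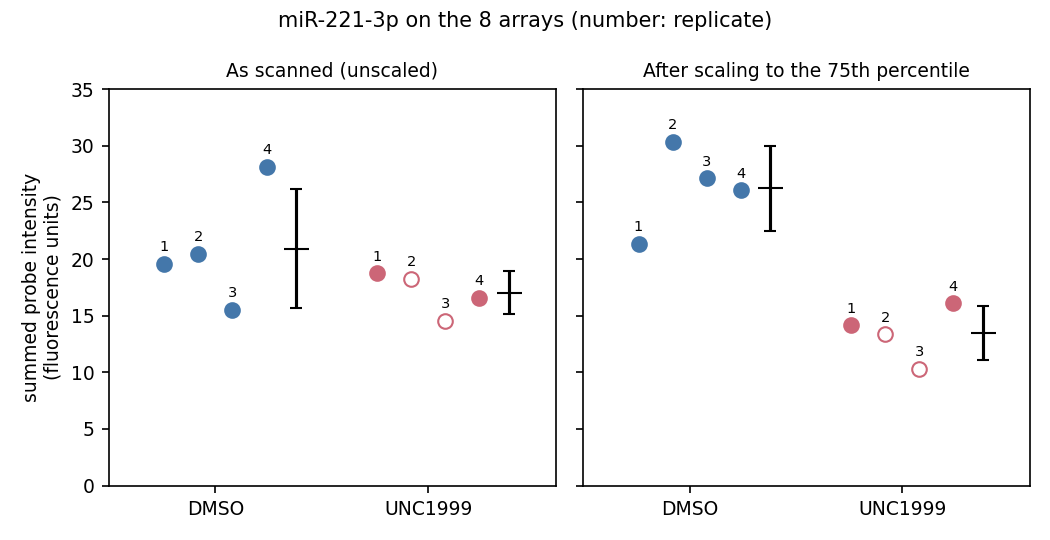
Summed intensity of miR-221-3p (y axis, fluorescence units) on the 4 DMSO arrays (blue) and the 4 UNC1999 arrays (red), as scanned on the left and after scaling on the right, with the replicate number at each point, filled points for arrays on which it was detected, and bars for the mean and SD. The groups overlap on the left, at 15.5 to 28.1 and 14.5 to 18.7 units, and separate on the right, at 21.4 to 30.4 and 10.3 to 16.1 units.

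On the log2 scale, miR-221-3p had means of 4.70 ± 0.21 in DMSO and 3.73 ± 0.27 in UNC1999 (SD, n = 4). limma was fitted on the 456 miRNAs that either group showed on each of its 4 arrays. A call needed both a fold change of 1.2 or more and a p that stayed at or below 0.05 after Benjamini-Hochberg adjustment. The log2 fold change, UNC1999 minus DMSO, was -0.97 (SE 0.15, 95% interval -1.31 to -0.63, limma adjusted p = 0.00057). By this rule miR-221-3p fell. It had entered the test through DMSO, the group in which it was the higher, since it was detected on 2 of 4 arrays with UNC1999. Without the filter on detection, over all 2549 miRNAs, its limma adjusted p was 0.026. Such a call was frequent: 34.6% of all miRNAs tested were called lower, and 32.7% were lower with groups that did not overlap. Of the 456, 164 were called higher, 158 lower and 134 neither, with a median log2 fold change of 0.01.

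Without scaling, the log2 fold change of miR-221-3p was -0.27 (95% interval -0.81 to 0.27, limma adjusted p = 0.42). Scaling to the labelling spike-ins gave -0.16 (95% interval -0.57 to 0.25, adjusted p = 0.49). The median of all tested miRNAs then stood at 0.67 and 0.77, so that miR-221-3p was below the median of the tested miRNAs by both. Both intervals exclude the -0.97 of the scaled values. They come from the same arrays and measure the spread under a given scaling, so they do not test the scalings against each other. The part that total miRNA content, labelling or array intensity had in the difference between scalings was not tested.

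**Figure D3:**
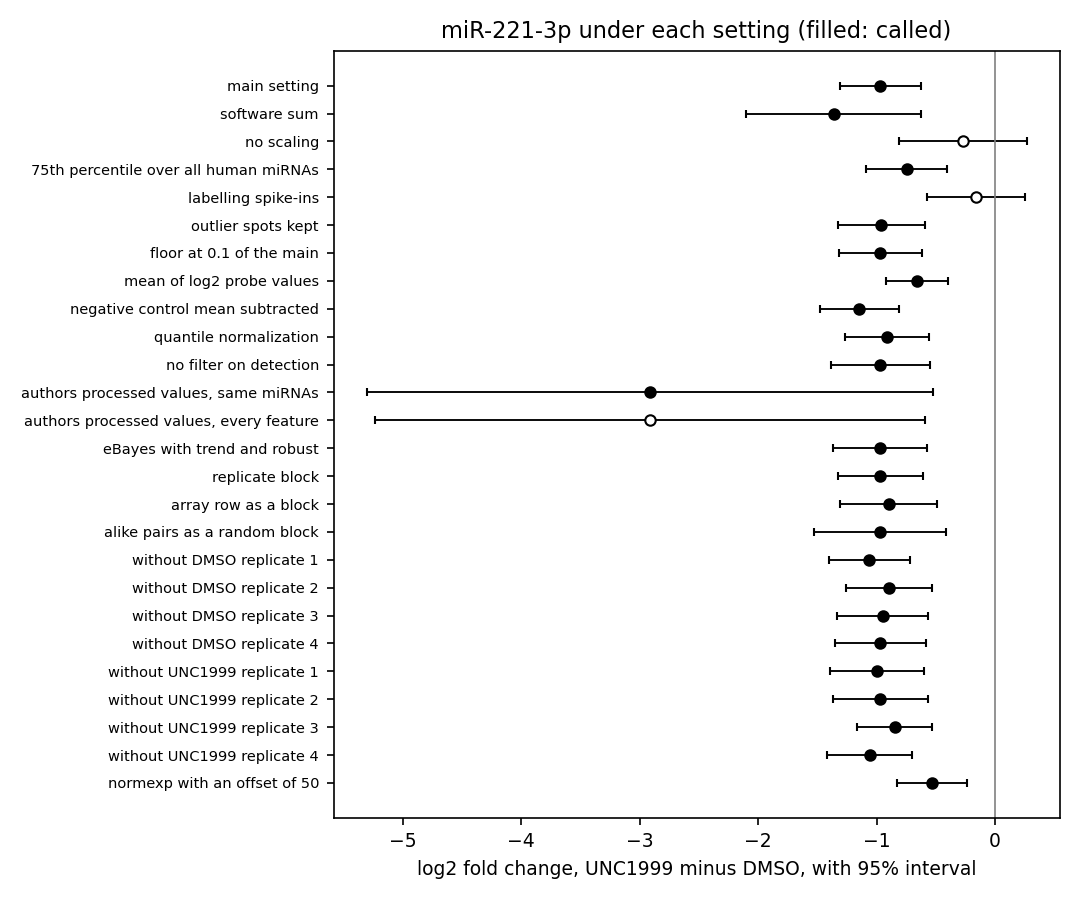
Log2 fold change of miR-221-3p, UNC1999 minus DMSO (x axis, 95% interval as bars), under the main setting and each alternative that gives an interval (y axis), with filled points where it was called. All points lie below 0, and the open points are the values without scaling (-0.27), scaled to the labelling spike-ins (-0.16) and from the authors' processed table with every feature tested (-2.91).

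Slide position was unequal between the groups. Row 1 of the slide held DMSO replicates 1, 2 and 4 and UNC1999 replicate 4, and row 2 held DMSO replicate 3 and UNC1999 replicates 1, 2 and 3. Within row 1 the scaled log2 difference of miR-221-3p was -0.67 and within row 2 it was -1.12. Before scaling it was -0.43 and 0.14, of opposite sign. With 1 array of 1 group in each row no test within a row was possible. With the row as a block the scaled log2 fold change was -0.90 (limma adjusted p = 0.0038).

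The signal of miR-221-3p rested mainly on its second probe. Probe 1 averaged 2.33 to 6.33 units per DMSO array and 2.18 to 5.28 per UNC1999 array before scaling, and was above every negative control in 4 of 4 DMSO samples but 1 of 4 UNC1999 samples. Probe 2 averaged 13.2 to 21.8 units in DMSO and 12.4 to 15.6 in UNC1999, above every negative control on 8 of 8 arrays. For probe 2 the software marked 9 of 37 spots used as well above background on the DMSO arrays and 1 of 39 on the UNC1999 arrays. Of the 9, 7 were on DMSO replicate 4 and 2 on replicate 1, with 0 on DMSO replicates 2 and 3. These spot counts are a description alone. After scaling, the log2 difference of probe 2 was -0.94 (exact permutation p = 0.029, and 0.029 after Benjamini-Hochberg over the 3 probes tested). All 3 lay at the smallest p that the test allows, so the adjustment could not raise it. Before scaling, the log2 difference of probe 2 was -0.24 (exact permutation p = 0.20). Probe 1 differed by -1.10 after scaling and by -0.40 before, values that are given as a description alone, because it did not exceed the negative controls on 3 of 4 arrays with UNC1999.

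hsa-miR-222-3p, transcribed with miR-221-3p and sharing its seed, had a summed intensity of 6.78, 4.26, 3.22 and 8.79 units on DMSO replicates 1 to 4. On UNC1999 replicates 1 to 4 it was 6.77, 7.55, 1.66 and 5.80 units. The groups overlapped, with UNC1999 replicate 3 the lowest and DMSO replicate 4 the highest, and the means were 5.76 ± 2.51 and 5.44 ± 2.62 units (SD, n = 4). After scaling it was below the floor of 8.98 units, which was set from the faintest detected miRNA of each array, on 8 of 8 arrays. It was therefore not detected at this sensitivity, and no fold change was taken for it.

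The probes of miR-222-3p did not read alike. Probe 1 averaged -3.69 to -0.28 units and was above the negative controls on 0 of 8 arrays. Probe 2 averaged 5.80 to 9.98 units in DMSO and 5.35 to 7.83 in UNC1999, above every negative control on 8 of 8 arrays although the miRNA was not marked as detected. Its means were 7.42 ± 1.82 and 7.02 ± 1.13 units (SD, n = 4), a log2 difference of -0.067 before scaling (exact permutation p = 0.86). After scaling the difference was -0.76 and the groups did not overlap (exact permutation p = 0.029). Among all tested miRNAs, 32.7% were lower with groups that did not overlap. Since miR-222-3p was not detected, the scaled difference of this probe is a description alone. Scaled to the labelling spike-ins its sign turned, at 0.043 (exact permutation p = 0.83). The files gave no probe sequences, so whether a probe of one 3p arm also read the other was not tested.

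The 5p arms, usually the minor strands of these hairpins, lay at background. hsa-miR-221-5p read 1.05, 2.78, -0.94 and 3.00 units in DMSO and -0.29, 4.16, 0.68 and 3.96 units in UNC1999, sums that overlapped around 0. Of its 16 probe averages, 3 exceeded the brightest negative control of their array and 5 were below 0. In UNC1999 replicate 3, 1 spot of this miRNA read 1090 units against a mean of 4.05 for the other 9 spots of its probe. It was marked as an outlier and left out.

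hsa-miR-222-5p read -3.96, -2.16, 1.92 and -9.26 units in DMSO and 1.80, -7.54, -6.54 and -4.00 units in UNC1999. The sums were below 0 on 6 of 8 arrays, in both groups. Of 32 probe averages, 2 exceeded the brightest negative control and 23 were below 0. No difference could be measured for either 5p arm. In order of summed intensity, neither the 5p arms nor miR-222-3p can be ranked against miR-221-3p, because each sum depends on its own probes.

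The tested miRNAs also divide by the group through which they entered the test. Of the 456, 10 (2.19%) were detected on every DMSO array but not on every UNC1999 array, miR-221-3p among them. Another 100 showed the reverse. These counts follow from the filter, which took detection on every array of either group. With UNC1999, 4 of the 10 were detected on at most 2 arrays, miR-3907 and miR-4758-3p on 1, and miR-221-3p and miR-3151-3p on 2. miR-221-3p thus entered through DMSO, and its detection on fewer UNC1999 arrays is a description alone. The number of detected miRNAs was higher on most UNC1999 arrays.

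Other miRNAs reported to repress the Cip/Kip family of CDK inhibitors were lower as well after scaling. The list held 11 miRNAs reported to target CDKN1A, CDKN1B or CDKN1C, of which 10 were found by name on the array and 9 were tested. miR-92b-3p was detected on 0 of 8 arrays. Of the 9, 0 were called higher, 8 lower and 1 neither, against 34.6% called lower among all tested. The 1 not called was miR-181a-5p, at -0.22 (limma adjusted p = 0.11). The list was chosen with earlier results of these data known, and the paper lists several of its members as reduced. Some members also share a seed, so the count is a description alone. The 8 lower calls became 4 with the percentile taken over all human miRNAs, and 0 without scaling or with the spike-ins. The median log2 fold change of the 9 tested was -0.55 against 0.01 for all tested miRNAs. It was 0.15 without scaling and 0.26 with the spike-ins. The largest change of the list was that of miR-148a-3p, which is reported to target CDKN1B like miR-221-3p, at -1.30 (SE 0.22, limma adjusted p = 7.6e-04). miR-20b-5p, miR-17-5p and miR-20a-5p, relatives with one seed that are reported to target CDKN1A, had log2 fold changes of -0.94, -0.92 and -0.88.

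On chromosome X, which carries the pair, miRNAs were called in both directions. Of 158 X-linked miRNAs on the array, besides the pair, 29 were tested, and 8 were called higher, 14 lower and 7 neither. Among all tested, 36.0% were called higher and 34.6% lower. The 14 lower calls became 9 with the percentile over all human miRNAs, 21 with another background correction (normexp), and 0 without scaling or with the spike-ins. The median log2 fold change of the list was -0.41, and it was 0.29 without scaling and 0.40 with the spike-ins. The nearest tested in gene order was miR-1587, at 0.16 (limma adjusted p = 0.23). The next ones, miR-3937, miR-188-5p and miR-6086, were called higher at 0.86, 0.71 and 0.36. None of these 4 was called in the direction of miR-221-3p. However, miR-3937 and miR-6086 had entered the test through UNC1999, the group in which they were higher. They were detected on 0 and 2 of the 4 DMSO arrays. Some of the other higher calls of the list had entered in the same way, with detection on 2 of 4 DMSO arrays. The 8 higher calls are therefore a description alone.

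The miRNAs whose scaled log2 signal followed miR-221-3p most closely over the 8 arrays were sought among the 346 detected on all of them, by the root mean square difference after each was centred on its mean. They were miR-211-3p at 0.19, miR-378i at 0.19, miR-92a-3p at 0.19, miR-550a-3p at 0.20 and miR-574-3p at 0.21 log2 units. These 5 were chosen for their likeness, and their log2 fold changes were between -1.01 and -0.70. For miR-222-3p no such list was made, since its values lay at the floor on 8 of 8 arrays.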

How the data were processed

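The authors deposited the scanner output of 8 arrays (Agilent Feature Extraction 10.7.3.1 in the submitters' processing notes), with a background-subtracted intensity per spot, not normalized between arrays, and a table of processed log2 values, used as an alternative. Here the spots of each probe were averaged after outlier spots were dropped, and the probe means of a miRNA added up. Scaling made the 75th percentile over the 346 miRNAs detected on 8 of 8 arrays equal between arrays. Values were raised to a floor of 8.98 (log2 3.17), which understates changes of dim miRNAs. limma 3.58.1 in R 4.3.3 was fitted without a block on 456 miRNAs and tested on simulated data. Single values were compared with two-sided exact permutation tests. The number of arrays limits the precision. Members and lists were chosen with earlier results of these data known. Named were the members, 4 of each list by size or nearness, seed mates and the 5 closest profiles. X-linked miRNAs were found by RefSeq's mature names or, for 17, by the name of their gene, leaving out 11 with copies elsewhere. No gene was matched for 26 miRNAs of the array. Planned ratios of miR-221-3p to miR-222-3p and of 3p to 5p arms were not taken, because the partners were not detected. Alternatives were other scalings, background corrections, floors, filters, summaries, blocks, the methods' paired test and leaving out each array. Same-numbered replicates did not deviate together (correlations of 0.18, 0.27, -0.42 and -0.39) and were not taken as pairs. The mRNA arrays were not used here.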

Additional observations from a re-analysis of the deposited data

Results flagged for a closer look

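Probe 2 of miR-222-3p on UNC1999 replicate 3 averaged 5.35 units before scaling, apart from the 7.42 to 7.83 units of the other UNC1999 replicates. Its gap was 0.84 of the range of the group. It was the single value of this kind in 30 sets of 4 arrays examined, of which chance gives about 1.5.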

How the results depend on the processing

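The log2 fold change of miR-221-3p was below 0 in all 27 alternatives and kept its call in 24. The call was lost without scaling (-0.27), with the labelling spike-ins (-0.16), and when all features of the authors' table were tested (-2.91, limma adjusted p = 0.13), so that 0 members were called there. That table gave miR-221-3p 0.04, 2.29, 2.09 and 0.52 in DMSO and -0.10, -3.32, -3.32 and 0.02 in UNC1999, where -3.32 is the value that it also gave the other 3 members on those arrays. With the same 456 miRNAs its adjusted p was 0.042. Leaving out each array gave -1.06 to -0.85 (adjusted p 5.9e-04 to 0.0024). With the replicate block it was -0.97 (adjusted p = 0.0014), with the alike pairs as a random block the adjusted p was 0.014, and with normexp the value was -0.53 at a median of all miRNAs of -0.32. The 75th percentile over all human miRNAs moved that median to 0.23 and the value to -0.75. Subtracting the negative control mean, chosen after seeing the data, gave -1.14.

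The scaled probe differences lay at the smallest p that the exact permutation test allows. Of 14 alternatives, 9 kept p under the threshold for probe 2 of miR-221-3p. Among the probes given as a description alone, 7 did for probe 2 of miR-222-3p and 4 for probe 1 of miR-221-3p. With an array left out the groups still did not overlap, and the exact permutation p was 0.029 or 0.057. Losses of that kind come from the coarse steps of the test, so these counts do not measure how well the differences hold. Probe 1 of miR-221-3p gave -0.40 without scaling, -0.29 with the spike-ins, -0.88 with the percentile over all human miRNAs, -2.31 with negative controls subtracted, and -1.28 to -0.84 with arrays left out. Probe 2 gave -0.24, -0.13 with the spike-ins, and -1.07 to -0.85 with arrays left out. Probe 2 of miR-222-3p gave -0.067 without scaling, turned to 0.043 with the spike-ins, and gave -0.90 to -0.59 with arrays left out. Under the replicate block these were -1.10, -0.94 and -0.76, where a paired exact test cannot go below 0.125. The list medians turned without scaling (0.15 for Cip/Kip, 0.29 for chromosome X) and with the spike-ins (0.26 and 0.40). The 322 calls over all miRNAs were 198 without the detection filter, 206 with every authors' feature, 214 with the alike pairs as a block and 152 by the methods' paired test. Testing miRNAs detected on 8 of 8 arrays alone gave no value, since miR-221-3p was not among them, and the single slide could not be a block. Causes were not tested.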
